A study of Mus musculus with 29 samples.

Results

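The POU domain factors described here are 8 transcription factor genes of the mouse: Pou3f1, Pou3f2, Pou3f3 and Pou3f4 of class 3, Pou4f1, Pou4f2 and Pou4f3 of class 4, and Pou2f2 of class 2. They were chosen by gene symbol, with earlier results of these data known, and are 8 of the 25239 genes counted in each of 8 RNA-seq libraries. Polyadenylated RNA came from dissected midbrain or forebrain of mouse embryos of stage E11.5, in 4 groups of 2 libraries. The groups are wild-type midbrain, midbrain of embryos labelled hs654 knockout, wild-type forebrain, and forebrain of embryos labelled hs267-853 knockout. The names beginning with hs are those of tested human enhancer elements, so by name the knockouts remove regulatory DNA and no POU gene. The labels do not give the bounds of the deletions. The labels do not say whether hs267-853 stands for 1 deleted element or 2, whether the knockouts are homozygous, or which strain was used. Each library is a pool of several embryos of 1 tissue and genotype. No label states that the pools of a group come from separate litters, so the p-values measure the spread between pools.

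POU factors bind DNA through a bipartite domain made of a POU-specific part and a homeodomain, and many of them recognise the octamer. Class 3 factors are produced broadly in the developing nervous system, often act together with SOX proteins on neural enhancers, and follow progenitors into differentiating neurons. Class 4 factors, also called Brn3 factors, mark sensory and retinal projection neurons, and Pou4f1 is known in the midbrain tectum, the red nucleus and the habenula. Pou2f2, or Oct-2, is best known from B cells and is also found in myeloid cells and in developing neurons.

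The RefSeq promoter table, of build GRCm38.p6 (mm10), held 6 of the 8 members, without Pou3f1 and Pou4f3, and for 4 of them its window ended at the outer end of the gene. The 250 bases before the start of those 4 genes are shown, because the 3 class 3 genes among them share a short motif there that Pou4f2 does not have. Capitals mark CCAAT on either strand, which reads ATTGG when it is on the strand opposite to the gene, and TATAA.
Pou3f2: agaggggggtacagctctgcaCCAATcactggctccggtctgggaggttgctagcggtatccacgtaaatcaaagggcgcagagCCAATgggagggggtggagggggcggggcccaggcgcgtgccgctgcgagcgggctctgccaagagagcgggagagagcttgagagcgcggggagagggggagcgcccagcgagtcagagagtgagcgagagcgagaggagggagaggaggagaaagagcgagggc
Pou3f3: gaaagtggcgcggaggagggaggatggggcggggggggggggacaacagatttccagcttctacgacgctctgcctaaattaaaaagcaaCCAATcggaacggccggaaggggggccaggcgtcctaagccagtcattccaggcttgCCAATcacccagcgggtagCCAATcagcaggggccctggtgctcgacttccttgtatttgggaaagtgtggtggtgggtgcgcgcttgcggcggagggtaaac
Pou3f4: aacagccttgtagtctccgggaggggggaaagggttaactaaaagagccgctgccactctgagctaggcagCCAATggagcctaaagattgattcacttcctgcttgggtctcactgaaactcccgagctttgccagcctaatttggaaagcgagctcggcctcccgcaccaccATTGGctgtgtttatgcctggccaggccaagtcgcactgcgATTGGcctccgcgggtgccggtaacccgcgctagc
Pou4f2: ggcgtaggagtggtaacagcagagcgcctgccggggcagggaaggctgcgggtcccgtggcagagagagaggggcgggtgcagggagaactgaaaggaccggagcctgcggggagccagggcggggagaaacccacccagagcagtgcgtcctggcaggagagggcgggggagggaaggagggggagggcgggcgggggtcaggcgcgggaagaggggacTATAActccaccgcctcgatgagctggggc
The windows are chr4:22488367-22488616 on the minus strand for Pou3f2, chr1:42695518-42695767 on the plus strand for Pou3f3, chrX:110814129-110814378 on the plus strand for Pou3f4, and chr8:78436648-78436897 on the minus strand for Pou4f2. Each sequence reads in the direction of its gene.

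The letters CCAAT occurred 2 times upstream of Pou3f2, 3 times upstream of Pou3f3 and 3 times upstream of Pou3f4. They did not occur in the windows of Pou4f1, Pou4f2 or Pou2f2. Of all 32851 windows of 250 bases, 33.8% held CCAAT on at least 1 strand. TATAA, found in 22.8% of all windows, began 30 bases before the start of Pou4f2 and 246 bases before the listed start of Pou4f1, and occurred in none of the class 3 windows. GGGCGG, found in 32.7% of all windows, occurred 5 times before Pou4f2, 2 times each before Pou4f1 and Pou2f2, 1 time each before Pou3f2 and Pou3f3, and not before Pou3f4. G and C made up 58% (Pou3f4) to 78% (Pou4f1) of the bases in these windows, against a median of 52.4% over all windows. The shares over all windows were not matched for this. Matches on both strands were counted, and pairs of GGGCGG matches overlapped each other before Pou4f1 and Pou4f2. The octamer ATGCAAAT occurred in 1.6% of all windows and in none of the 6. The windows of Pou4f1 and Pou2f2 lie 119 and 48337 bases inside the annotated genes, so they are counted but not shown.

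**Figure D1:**
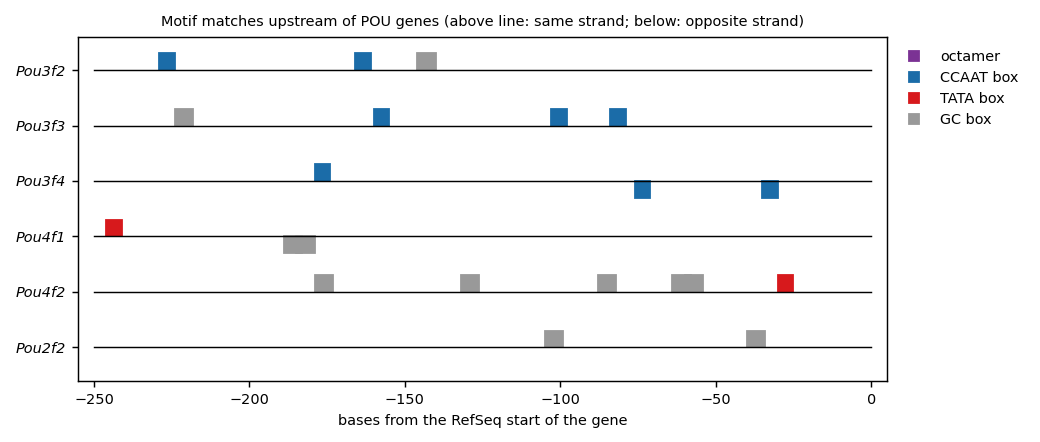
Positions of 4 motifs in the 250 bases before the RefSeq start of 6 POU genes, in bases from the start. Boxes above a line are on the strand of the gene and boxes below it on the opposite strand. CCAAT is found before the 3 class 3 genes shown, TATAA before the 2 class 4 genes shown, and the octamer before none; Pou3f1 and Pou4f3 had no entry.

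Values are CPM, read counts scaled to the same total of reads in genes in each library and adjusted by the TMM method, which corrects for a few abundant genes taking reads from the rest. Total gene counts were 9051632 to 18024406 per library, so 3 counts, the floor used for a listed value of 0, equal 0.170 to 0.328 CPM. All 8 libraries were fitted together over the 15383 genes that passed a filter on low counts, and 7 of the 8 POU members passed; Pou4f2 passed through its midbrain counts alone. The tissue labels match the levels of regional genes. All 5 forebrain genes of the list (among them Tbr1 and Dlx2) were higher in forebrain. All 5 midbrain-hindbrain genes (among them En2 and Pax5) were lower. In wild type, 14.3% of all tested genes were called higher in forebrain and 15.3% lower. En2, with no count in forebrain, and Pax8, with 3 to 5 per library, passed the filter through midbrain alone. One library stood apart within its group. On the second principal component, which held 6.90% of the variance, replicate 1 of the knockout forebrain lay at 35.3, and the other 7 libraries lay between -17.4 and 4.89. The results of the knockout comparison that rest on it are given with and without it. No gene count can show whether an enhancer is deleted, so the genotypes rest on the labels. In pooled tissue, fewer cells of a type and less RNA per cell cannot be told apart.

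Forebrain and midbrain were first compared in the wild type. Class 3 genes other than Pou3f3 were 3.06 to 4.76 times lower in forebrain, Pou4f1 was 29.5 times lower, Pou2f2 was 5.88 times lower and Pou4f2 had no count in forebrain. Pou3f3 was 1.20 times higher in forebrain. At an adjusted p under 0.05 by edgeR's quasi-likelihood test (Benjamini-Hochberg, over all tested genes), 1 member was higher and 5 were lower. Pou4f2 entered the fit through midbrain alone and is not counted among these, and Pou4f3 was not tested. Of all tested genes, 29.6% passed, 14.3% higher and 15.3% lower in forebrain. With Pou4f2 left out for the same reason, the libraries of the tissues did not overlap for any tested member. Over all tested genes they did not overlap for 65.9%. The median log2 difference was -2.25 over the 7 tested members, which here include Pou4f2, fitted or at its bound. It was 0.0012 over all tested genes.

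Pou3f2, also called Brn2, is a neural factor used to convert other cells into neurons. It lies at chr4:22482095-22488366. Its level was 318 and 286 CPM in the wild-type midbrain libraries, 317 and 325 CPM in hs654 knockout midbrain, 70.7 and 71.5 CPM in wild-type forebrain, and 108 and 92.4 CPM in hs267-853 knockout forebrain. Every midbrain library was above every forebrain library, and both knockout forebrain libraries were above both wild-type ones. The wild-type difference, forebrain minus midbrain, was -2.09 on the log2 scale (SE 0.0802, adjusted p = 1.695e-09 by edgeR's quasi-likelihood test).

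Pou3f4, or Brn4, is a factor known for its part in inner ear and striatal development, and it lies at chrX:110814379-110819108. It was at 207 and 195 CPM in wild-type midbrain, 213 and 208 CPM in knockout midbrain, 45.9 and 38.5 CPM in wild-type forebrain, and 44.0 and 40.3 CPM in knockout forebrain. The tissues did not overlap, and within each tissue the genotypes lay close together. The wild-type log2 difference was -2.25 (SE 0.0844, adjusted p = 1.39e-09 by edgeR's quasi-likelihood test), and the gene ranked 16 of 15383 by p.

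Pou3f1, also known as Oct-6, is the regulator of Schwann cell myelination and is found in early neural tissue. The gene lies at chr4:124657646-124660655. Its libraries held 48.1 and 51.5 CPM in wild-type midbrain, 59.8 and 54.9 CPM in knockout midbrain, 17.9 and 14.5 CPM in wild-type forebrain, and 21.7 and 12.8 CPM in knockout forebrain. Per kb of gene it was the lowest class 3 gene in all 8 libraries, and its tissues did not overlap. The wild-type log2 difference was -1.61 (SE 0.184, adjusted p = 2.585e-05 by edgeR's quasi-likelihood test).

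Pou3f3, or Brn1, acts with Pou3f2 in cortical neurons, and it lies at chr1:42695768-42700210. It was at 344 and 349 CPM in wild-type midbrain and 362 and 355 CPM in knockout midbrain. In forebrain it was at 422 and 409 CPM in wild-type libraries and 468 and 360 CPM in those of the knockout. The wild-type tissues did not overlap, whereas replicate 2 of the knockout forebrain fell between the 2 knockout midbrain libraries. The wild-type log2 difference was 0.26 (SE 0.0898, adjusted p = 0.04264 by edgeR's quasi-likelihood test), close to the threshold. The call was lost in 7 of 16 alternative settings, with adjusted p from 0.05307 to 0.1736 by the same test; the log2 difference stayed between 0.24 and 0.29.

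**Figure D2:**
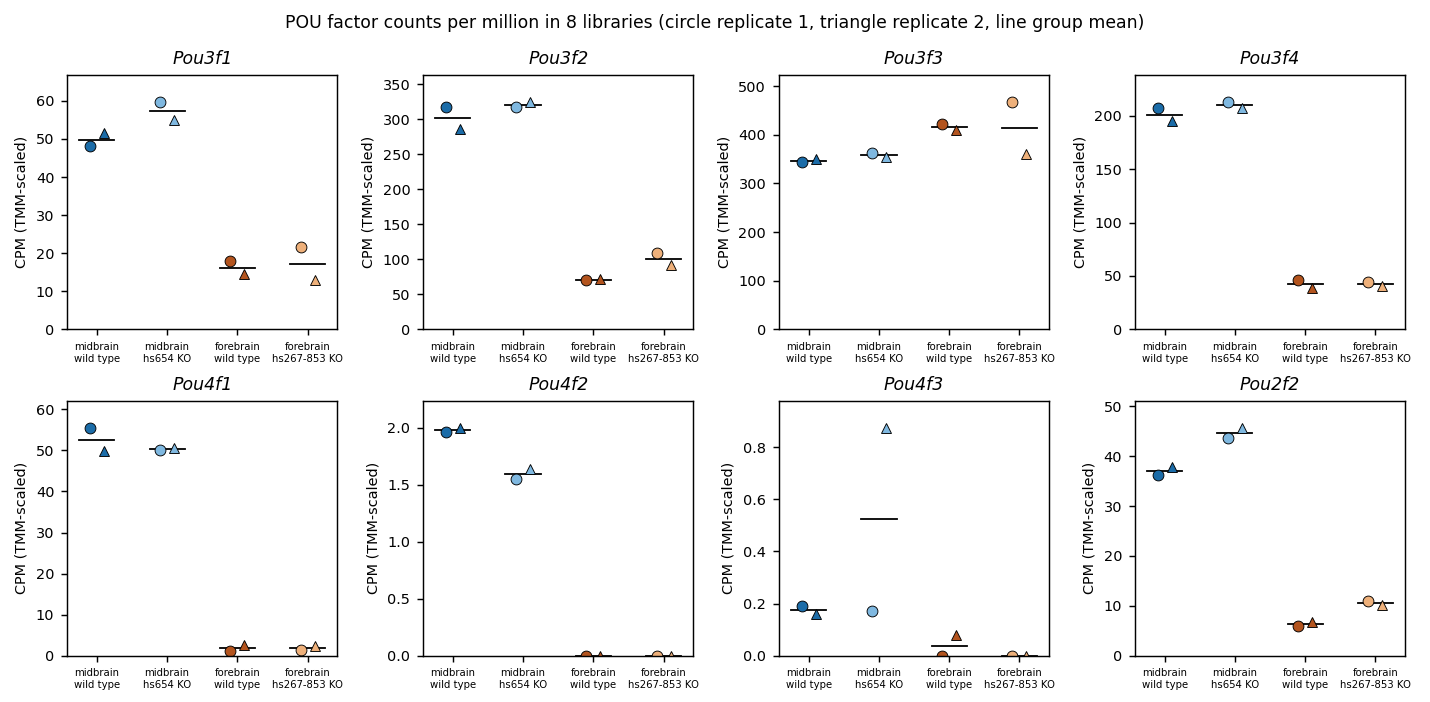
Level of the 8 POU genes in each library, in TMM-scaled CPM on linear axes that start at 0 and differ between panels. Circles are replicate 1, triangles replicate 2, and lines the means of 2 libraries. For Pou3f1, Pou3f2, Pou3f4, Pou4f1 and Pou2f2 every midbrain library lies above every forebrain library, and for Pou3f3 this is not so. No order is read for Pou4f2, which passed the filter through midbrain alone, or for Pou4f3, which did not pass. Over all tested genes, the tissues did not overlap for 65.9% in wild type and 64.4% in knockouts.

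Class 3 genes are known to have no introns, so their RefSeq spans of 3010 to 6272 bases were used to compare levels per kb. In wild-type midbrain Pou3f3 stood at 78.0 ± 0.913 CPM per kb (SD, n = 2), Pou3f2 at 48.2 ± 3.62, Pou3f4 at 42.5 ± 1.83 and Pou3f1 at 16.5 ± 0.793. Pou3f2 and Pou3f4, the neighbours in that order, were 45.6 and 50.7 against 41.2 and 43.8 CPM per kb, a gap of little more than their spread. In wild-type forebrain Pou3f3 stood at 93.6 ± 2.10 CPM per kb (SD, n = 2), Pou3f2 at 11.3 ± 0.0904, Pou3f4 at 8.92 ± 1.10 and Pou3f1 at 5.39 ± 0.791. The order was the same in both tissues, with Pou3f3 far above the other class 3 genes in forebrain.

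The total and the makeup of the class both differed between tissues. Summed over the 4 genes, the level was 185 ± 3.74 CPM per kb (SD, n = 2) in wild-type midbrain and 119 ± 3.90 in wild-type forebrain. Pou3f3 made up 42.1% ± 1.34 of that sum (SD, n = 2) in wild-type midbrain and 41.3% ± 0.119 in knockout midbrain. Its share was 78.5% ± 0.804 in wild-type forebrain and 75.2% ± 0.732 in knockout forebrain. Pou3f2 made up 26.0% ± 1.43 and 26.2% ± 0.756 in the midbrain groups, 9.52% ± 0.387 in wild-type forebrain and 13.0% ± 0.803 in knockout forebrain (SD, n = 2). The knockout forebrain libraries differed in the sum, 124 ± 21.6 CPM per kb, but little in the shares. These sums weigh messages by annotated length and were not tested. The 4 genes share a conserved POU domain, and reads aligned to more than 1 place are listed apart from genes in the tables, so the levels are uncertain to that extent.

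**Figure D3:**
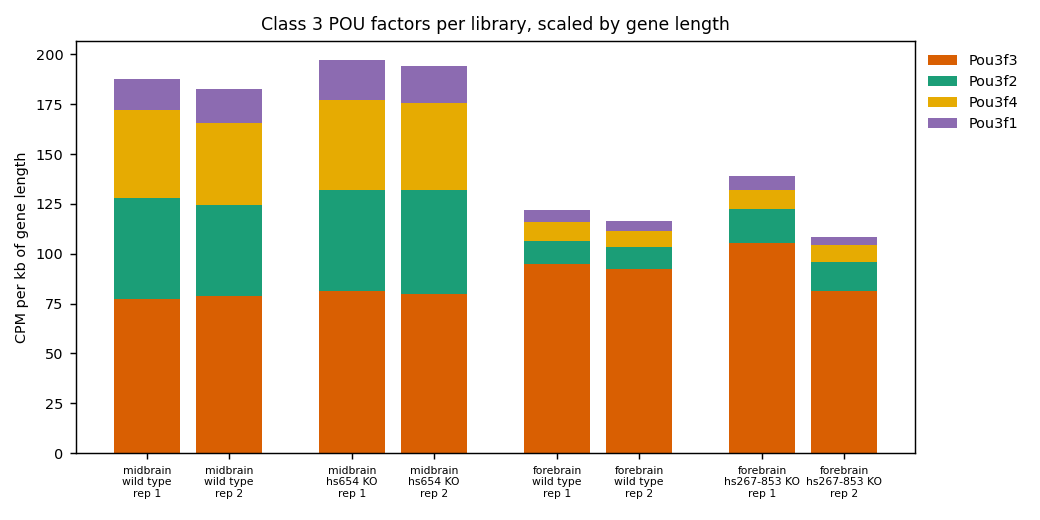
Class 3 POU genes stacked per library in CPM per kb of RefSeq gene span, starting at 0. Each bar is 1 library. Pou3f3 fills 41.2% to 43.1% of the midbrain bars and 74.7% to 79.1% of the forebrain bars.

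Counts of the class 4 genes came mainly from midbrain. Pou4f1, or Brn3a, which lies at chr14:104461675-104468118, was at 55.4 and 49.9 CPM in wild-type midbrain, 50.2 and 50.7 CPM in knockout midbrain, 1.02 and 2.63 CPM in wild-type forebrain, and 1.36 and 2.29 CPM in knockout forebrain. The 4 forebrain libraries together held 108 counts of Pou4f1 and the 4 midbrain libraries 2550. The wild-type log2 difference was -4.88 (SE 0.242, adjusted p = 1.235e-08 by edgeR's quasi-likelihood test).

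Pou4f2, or Brn3b, best known from retinal ganglion cells, lies at chr8:78433009-78436647 and was low. It had 31 and 25 counts in wild-type midbrain, 18 and 15 counts in knockout midbrain and 0 counts in each forebrain library. Against the floor of 3 counts per library it was at least 8.52-fold higher in wild-type midbrain (1.98 ± 0.0253 CPM, SD, n = 2) than in wild-type forebrain. No p is given, because it passed the filter only where it is high. Pou4f3, or Brn3c, known from hair cells, had 3, 2, 2 and 8 counts in the midbrain libraries, and 1 count in all 4 forebrain libraries together. It did not pass the filter and was not compared.

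Beside the class 4 genes, 14 of a list of 15 sensory ganglion genes were found in the tables and 13 were tested. Of these, 8 fell in wild-type forebrain, none rose and 5 did not pass by edgeR's quasi-likelihood test. The median log2 difference was -1.62. The share called lower was 15.3% over all tested genes. Prph and Tlx3 had at most 5 and 7 counts in a forebrain library. They passed the filter through midbrain alone, so nothing is read from their calls. Sncg, a synuclein of peripheral neurons, was at 23.9 CPM in wild-type midbrain and 0.967 CPM in wild-type forebrain. Prph, a peripheral neurofilament protein, was at 3.68 and 0.223 CPM, and Tlx3, a homeobox factor of sensory relay neurons, at 3.33 and 0.223 CPM. Summed over the list, the libraries held 141 to 148 CPM in wild-type midbrain, 155 to 157 in knockout midbrain, 80.6 to 102 in wild-type forebrain and 83.8 to 89.8 in knockout forebrain. The eye and retina genes summed to 4.36 to 8.19 CPM in all libraries of both tissues. The part of ganglion tissue in the class 4 levels was not tested.

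Genes of early glutamatergic and dorsal midbrain neurons also moved with the class 4 genes. All 7 listed genes were lower in wild-type forebrain by edgeR's quasi-likelihood test, with a median log2 difference of -2.35. The share called lower was 15.3% over all tested genes. Barhl1 and Tfap2d had at most 4 and 7 counts in a forebrain library. They passed the filter through midbrain alone, so nothing is read from their calls. Barhl1, a BarH-like homeobox factor, was at 37.4 CPM in wild-type midbrain and 0.252 CPM in wild-type forebrain, and Tfap2d, an AP-2 factor, was at 33.5 and 0.353 CPM. Ebf3 and Ebf1, factors of early neurons, fell by 2.65 and 2.35 on the log2 scale.

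Pou2f2 lies at chr7:25087350-25180797. It was at 36.2 and 37.9 CPM in wild-type midbrain, 43.6 and 45.6 CPM in knockout midbrain, 5.97 and 6.65 CPM in wild-type forebrain, and 10.9 and 10.1 CPM in knockout forebrain. The 4 groups did not overlap one another. The wild-type log2 difference, forebrain minus midbrain, was -2.56 (SE 0.125, adjusted p = 1.088e-08 by edgeR's quasi-likelihood test). Because Pou2f2 is also a gene of myeloid cells, the macrophage list was read beside it. Its 4 genes summed to 35.5 to 42.2 CPM in wild-type midbrain, 19.3 to 27.0 in wild-type forebrain and 17.9 to 18.8 in knockout forebrain. Csf1r and Cx3cr1, receptors of macrophages and microglia, were lower in wild-type forebrain by 0.89 and 0.64 on the log2 scale, and Ptprc and Aif1 did not pass by edgeR's quasi-likelihood test. The part of macrophages in the Pou2f2 values was not tested. Pou2f2 overlaps the genes D930028M14Rik and Mir6537, and the strand setting of the counting is not given in the sources used here. D930028M14Rik was at 39.8 CPM in wild-type midbrain and 1.47 CPM in wild-type forebrain, so reads of the pair may be shared.

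The same tissue comparison in the knockouts used the other 4 libraries. There, leaving out Pou4f2 again, 0 members were higher, 5 lower and 1 not called, against 14.6% of all tested genes called higher and 14.8% lower, 29.4% together. Among the same members only the libraries of Pou3f3 overlapped, and for 64.4% of all tested genes the libraries did not overlap. The log2 differences, knockout forebrain minus knockout midbrain, were -1.72 for Pou3f1 (SE 0.181), -1.68 for Pou3f2 (SE 0.0780), -2.32 for Pou3f4 (SE 0.0840), -4.80 for Pou4f1 (SE 0.237) and -2.08 for Pou2f2 (SE 0.116). Pou4f2 was at least 8.11-fold higher in knockout midbrain. Pou3f3 differed by 0.21 (SE 0.0900, adjusted p = 0.1042 by edgeR's quasi-likelihood test); it was 0.39 without replicate 2 of the knockout forebrain, where it passed (adjusted p = 8.279e-05), and 0.0085 without replicate 1. Over the series, 3363 genes were called in both tissue comparisons in the same direction and 1 in opposite directions.

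**Figure D4:**
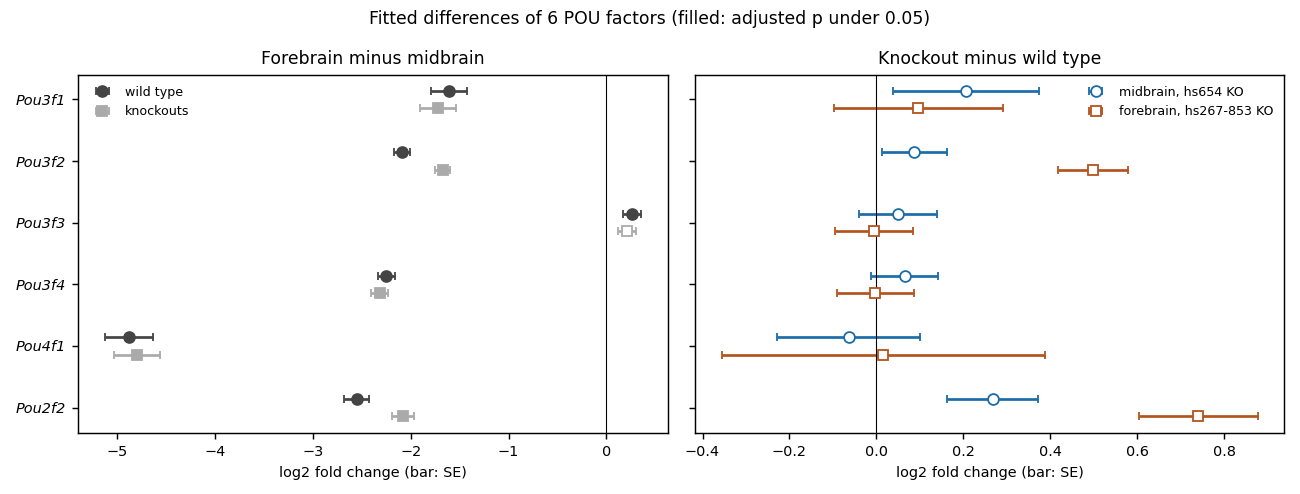
Fitted log2 differences of 6 POU genes with their SE from 2 libraries a group. The left panel gives forebrain minus midbrain in wild type (circles) and knockouts (squares), and the right panel knockout minus wild type in midbrain (circles) and forebrain (squares), on a narrower axis. Filled symbols passed the adjusted threshold, and in the right panel none did.

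Midbrain of embryos labelled hs654 knockout was compared with wild-type midbrain. No member was called among the 7 with a test, and of all 15383 tested genes 0% were called. At an unadjusted p under 0.05, edgeR's quasi-likelihood test gave 1 member against 3.96% of all tested genes, 609 in number, and DESeq2 called 0 genes. The member was Pou2f2, with wild-type libraries at 37.1 ± 1.20 CPM (SD, n = 2) and knockout libraries at 44.6 ± 1.44 CPM. Its log2 difference was 0.27 (SE 0.105, adjusted p = 0.9925 by edgeR's quasi-likelihood test). The other fitted differences lay between -0.31 for Pou4f2 and 0.21 for Pou3f1. The knockout and wild-type libraries did not overlap for 5 of the 7 tested members, and for 36.7% of all tested genes. For Pou3f2, Pou3f3 and Pou3f4 the 95% confidence intervals of the log2 difference were -0.075 to 0.25, -0.15 to 0.25 and -0.10 to 0.23. Lists of other genes were read beside these values. The log2 difference was positive for 9 of 9 pan-neuronal and 7 of 7 early glutamatergic and dorsal midbrain genes, with 0 called, and the pan-neuronal sum was 3455 to 3612 CPM in wild-type libraries and 3791 to 3916 CPM in knockout libraries. It was also positive for 7 of 7 mesenchyme and 4 of 4 endothelial genes and negative for 6 of 6 erythroid genes, with 0 called. The part of tissue makeup in the midbrain values was not tested.

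In forebrain, embryos labelled hs267-853 knockout had higher CPM of Pou3f2 and Pou2f2 in both libraries, but neither difference passed the adjusted threshold. No member was called among the 6 with a test, and of all tested genes 0.013% were called. Pou3f2 was at 71.1 ± 0.567 CPM (SD, n = 2) in wild-type and 100.4 ± 11.4 CPM in knockout forebrain, a log2 difference of 0.50 (SE 0.0805, 95% confidence interval 0.32 to 0.67). Its p of 3.534e-05 by edgeR's quasi-likelihood test ranked 3 of 15383 and gave an adjusted p of 0.1414. Pou2f2 was at 6.31 ± 0.483 CPM (SD, n = 2) in wild-type and 10.5 ± 0.526 CPM in knockout forebrain, a log2 difference of 0.74 (SE 0.136, 95% confidence interval 0.45 to 1.04). Its p of 0.0001219 by the same test ranked 7 and gave an adjusted p of 0.2366. At an unadjusted p under 0.05 the test gave these 2 members and 4.78% of all tested genes. Libraries of knockout and wild type did not overlap for these 2 of the 6 members with a test, and for 31.1% of all tested genes.

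These forebrain values moved with single libraries. Without replicate 1 of the knockout forebrain, the library that stood apart, the log2 difference of Pou3f2 was 0.38 (SE 0.0765, adjusted p = 0.1406 by edgeR's quasi-likelihood test). Without replicate 2 it was 0.61 (SE 0.0746, adjusted p = 0.000397), past the threshold. Pou2f2 was at 0.69 without replicate 1 (adjusted p = 0.319 by edgeR's quasi-likelihood test) and at 0.79 without replicate 2 (adjusted p = 0.02722). DESeq2 called Pou3f2, with a log2 difference of 0.49 and an adjusted p of 0.0005666, and did not call Pou2f2, with an adjusted p of 0.1105. Over all alternatives the log2 difference of Pou3f2 stayed between 0.38 and 0.61, with adjusted p from 5.034e-09 to 0.9997 across edgeR, limma and DESeq2. That of Pou2f2 stayed between 0.66 and 0.82, with adjusted p from 0.00248 to 0.9997.

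The remaining class 3 genes and Pou4f1 had forebrain differences near 0 in the fit, of 0.096 for Pou3f1, -0.0054 for Pou3f3, -0.0023 for Pou3f4 and 0.016 for Pou4f1. The 95% confidence intervals were -0.20 to 0.19 for Pou3f3 and -0.19 to 0.19 for Pou3f4, and wider, -0.79 to 0.82, for Pou4f1 with its 49 and 59 counts per group. Leaving out 1 knockout library moved Pou3f3 to -0.21 or to 0.17, so its small difference is the balance of a high and a low library. Markers of neurons differed between the same libraries. The sum of 9 pan-neuronal genes was 1685 to 1942 CPM in the wild-type and 1531 to 2177 CPM in the knockout forebrain, with replicate 1 the highest and replicate 2 the lowest of the 4. The log2 difference was positive for 8 of the 9 genes, and 0 were called. Mesenchyme genes differed too, with a negative log2 difference for 7 of 7 (median -0.28, 0 called) and a sum of 932 CPM in replicate 1 and 1401 CPM in replicate 2 of the knockout, against 1297 to 1593 CPM in wild-type forebrain. The part of neuron or mesenchyme content in the Pou3f2 and Pou2f2 differences was not tested.

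The knockout effects were then set against each other, midbrain minus forebrain. In this interaction 0 members passed, and 0.0065% of all tested genes did. At an unadjusted p under 0.05 the test gave 2 members, Pou3f2 and Pou2f2, and 4.02% of all tested genes. Pou3f2 had a difference of -0.41 (SE 0.110, adjusted p = 0.9963 by edgeR's quasi-likelihood test), which became -0.52 without replicate 2 of the knockout forebrain (adjusted p = 0.02248) and -0.29 without replicate 1 (adjusted p = 0.6245). Pou2f2 had a difference of -0.47 (SE 0.172, adjusted p = 0.9963 by the same test). The knockouts are named for different elements and were sampled in different tissues, so this is a comparison of 2 separate experiments.

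Other POU genes and known partners were read from lists. Of 6 further POU genes and the Oct co-activator Pou2af1, 2 were tested and both were lower in wild-type forebrain by edgeR's quasi-likelihood test. The share called lower was 15.3% over all tested genes. Pou2f1, the ubiquitous Oct-1, fell by 0.42 (SE 0.0618) and Pou6f1 fell by 0.73 (SE 0.165) on the log2 scale. Pou2f3 had no count in any library. Pou1f1, Pou5f1, Pou5f2 and Pou2af1 had too few counts to test.

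Among 6 SOX genes, whose proteins act as partners of class 3 factors, 4 were higher, 1 lower and 1 not called in wild-type forebrain by edgeR's quasi-likelihood test. The progenitor factors Sox2 and Sox3 were higher by 0.57 and 0.54 on the log2 scale and Sox12, of the neuronal SOXC group, by 0.46. Sox1 was higher by 0.37. Nes and Fabp7, progenitor genes with POU sites in their neural enhancers, fell by 0.62 and 1.02, and Dll1 did not pass, with -0.11. The SOX genes thus went the other way from Pou3f1, Pou3f2 and Pou3f4 for 4 of 6. Sox4 and Sox11 did not, at 710 and 1299 CPM in wild-type midbrain and 603 and 1202 CPM in wild-type forebrain. Of all tested genes, 14.3% were called higher and 15.3% lower in wild-type forebrain. Between the knockout tissues, 3 SOX genes were called higher and 2 lower in forebrain. None of the genes in this paragraph was called in a comparison of knockout with wild type.

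Pou3f2 acts with Sim1, Otp and Arnt2 in the hypothalamus, and a list of 7 such genes was followed. Of 4 tested, 3 fell in wild-type forebrain by edgeR's quasi-likelihood test, and Arnt2 did not pass. The falls were 5.04 for Trh, 3.90 for Sim1 and 3.05 for Otp on the log2 scale. The share called lower was 15.3% over all tested genes. Trh had 1 to 5 counts in each forebrain library and passed the filter through midbrain alone, so nothing is read from its call. The hormone genes Avp and Oxt had no count in any library and Crh 1 count in all. In knockout forebrain, Sim1 was at 5.16 CPM in replicate 1 and 1.37 CPM in replicate 2, against 1.29 and 1.86 CPM in wild type. Otp was at 9.41 and 2.03 CPM, against 0.746 and 1.24 CPM. Replicate 1 was thus high for both regulators; their differences of 1.10 and 2.56 did not pass (adjusted p = 0.9836 and 0.6711 by edgeR's quasi-likelihood test), and the part of dissected hypothalamic tissue in the Pou3f2 values was not tested.

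All 9 pan-neuronal genes were lower in wild-type forebrain by edgeR's quasi-likelihood test, with a median log2 difference of -0.91. Summed, they were at 3455 to 3612 CPM in wild-type midbrain and 1685 to 1942 CPM in wild-type forebrain. Of 8 neural progenitor genes, 2 rose (Hes1 by 1.28 and Pax6 by 1.18), 2 fell (Hes5 by 0.97 and Prom1 by 0.24) and 4 did not pass. In wild type, Pou3f2, Pou3f4, Pou4f1 and Pou2f2 had larger fitted differences than any pan-neuronal gene. Among those Snap25 had the largest, -1.99, and Pou3f1 had a smaller one than Snap25. For Pou3f2 this did not hold between the knockout tissues, where it was at -1.68 and the pan-neuronal gene Ina at -1.71. The gaps between genes were not tested. The part of neuron content in the tissue differences of the POU genes was not tested. In other lists, 0 of 6 erythroid, 3 of 7 mesenchyme and 1 of 4 endothelial genes passed, the mesenchyme and endothelial ones higher in forebrain, against 29.6% of all tested genes called and 14.3% called higher.

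**Figure D5:**
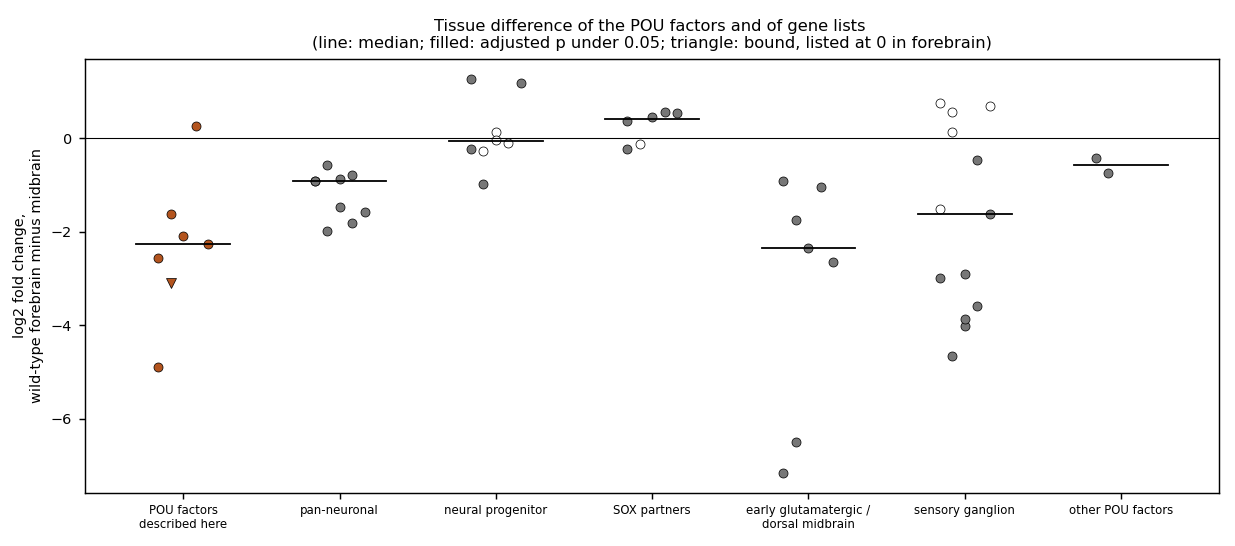
Log2 difference of each tested gene, wild-type forebrain minus wild-type midbrain, for the POU genes and 6 lists. Lines are medians, filled symbols passed the adjusted threshold, and the triangle is a bound for Pou4f2, which has no forebrain count. The POU median of -2.25 includes Pou4f2, which passed the filter through midbrain alone. The early glutamatergic median of -2.35 likewise includes Barhl1 and Tfap2d, and the sensory ganglion median of -1.62 includes Prph and Tlx3. The pan-neuronal median was -0.91. The medians were not tested against each other.

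Profiles over the 8 libraries were compared by the root mean square difference of log2 CPM centred on each gene, where 0 is the same profile. Within the family the closest pair was Pou3f2 and Pou2f2, at 0.25, followed by Pou3f1 and Pou3f2, also at 0.25, and Pou3f2 and Pou3f4, at 0.28. Pou3f3 was at least 0.97 from every other tested member. Pou4f1 and Pou4f2 were 0.57 apart. That distance depends on the 2 counts added to each value before taking logs, because Pou4f2 had 0 counts in forebrain. These distances share the 8 libraries and are mostly set by the tissue difference.

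Among 14319 other genes with a mean of at least 1 CPM, the profiles nearest to Pou3f1 were those of Ina, Ntn1 and Chrna4, at 0.053 to 0.11, against a median of 0.89 over all these genes. Ina, an internexin of young neurons, is also in the pan-neuronal list, and Ntn1 encodes the guidance cue netrin. Pou3f2 was nearest to Gdpd2, Draxin and Syt13, at 0.083 to 0.11. Draxin, a secreted axon guidance protein, had a forebrain knockout difference of 0.39 (SE 0.0832, adjusted p = 0.2959 by edgeR's quasi-likelihood test) beside the 0.50 of Pou3f2. Draxin was picked by its profile over the same libraries, so a like difference follows in part from that choice. Pou3f4 was nearest to Gfra1, Cntn2 and Kcnab1, at 0.075 to 0.11; Cntn2 is an axonal adhesion protein and Gfra1 a receptor for glial cell line derived neurotrophic factor. Pou4f1 was nearest to Gm20554, at 0.14, and then Irx2, an Iroquois factor, and Lrtm1, at 0.26 and 0.33. Pou4f2 was nearest to Gata2, a factor of midbrain GABAergic neurons, at 0.21, and then Epha10 and Cplx3. Its forebrain profile is only the 2 counts added before taking logs, so nothing is read from these nearest genes. Pou2f2 was nearest to Prmt8, Slc7a14 and Cpne4, at 0.16 to 0.17. Pou3f3 was nearest to Cox14, Tubg1 and Pak3, at 0.028 to 0.042, where the median over all genes was 0.22, since a nearly flat profile resembles many others.

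Genes within 0.5 Mb of the members were counted from the same RefSeq table. Pou3f2 had 11 such neighbours, of which 2 were tested and 1 fell in wild-type forebrain. That gene, Gm30731, a long non-coding RNA whose start lies 8.45 kb from that of Pou3f2, was at 5.56 CPM in wild-type midbrain and 0.895 CPM in wild-type forebrain, a log2 difference of -2.61 (adjusted p = 0.0001297 by edgeR's quasi-likelihood test). Its forebrain knockout difference was 0.52, with an adjusted p of 0.9836. Pou3f3 had 22 neighbours and 8 tested, and 0 passed. They include the non-coding genes Pantr1, at 48.6 CPM in wild-type midbrain and 43.9 CPM in wild-type forebrain, and Pantr2, at 4.32 and 4.84 CPM.

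Pou3f1 had 40 neighbours and 19 tested, of which 3 were higher and 3 lower in wild-type forebrain. Pou2f2 had 55 and 23 tested, of which 4 were higher and 5 lower. Over all tested genes 29.6% passed that comparison, so nothing is read from these counts. None of the 6 neighbours of Pou3f4 and none of the 12 of Pou4f1 passed the filter on low counts. Pou4f2 had 14 neighbours with 3 tested and 0 called, and Pou4f3 had 19 with 5 tested and 1 higher, Ppp2r2b. In the knockout comparisons 0 neighbours of any member were called. Of the genes that overlap Pou2f2, D930028M14Rik had a forebrain knockout difference of 1.31 (adjusted p = 0.7328 by edgeR's quasi-likelihood test), in the same direction as Pou2f2, and its level there was 3.55 ± 1.87 CPM (SD, n = 2) against 1.47 ± 0.545 CPM in wild type.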

How the data were processed

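The 8 RNA-seq libraries among 29 samples were analysed, 4 groups of 2 taken from tissue, genotype and replicate number in the titles; the other 21, of enhancer-capture Hi-C, were not used here. The values are raw counts per gene that the authors deposited, 1 table per library. The submitters' processing notes name STAR, HTSeq, DESeq2 and mm10 without role or version; annotation and strand setting are not given in the sources used here. Rows that name no gene held 78.5% to 80.2% of all counts and were left out; the row for reads aligned to more than 1 place equalled that for low alignment quality in every library and was added once.

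From the counts, genes were filtered with filterByExpr and scaled by TMM, and 1 mean per group was fitted with edgeR 4.0.16 in R 4.3.3 (glmQLFit, glmQLFTest, two-sided). P-values were adjusted by Benjamini-Hochberg over 15383 genes. The SE is the log2 difference divided by the square root of F. The residual degrees of freedom were 4, the prior degrees 8.75 and the biological coefficient of variation 7.62%. The scripts were tested on simulated data. Replicates of each group were distinct libraries: the chi-square of their counts, per degree of freedom, was 3.75 to 7.74. The numbers of the replicates gave no pairing. The alternatives used limma 3.58.1, DESeq2 1.42.0, other scalings and filters, the libraries compared alone, a replicate block and each library left out. The floor of 3 counts covers counting error only.

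Members and lists were chosen with earlier results of these data known. All members are named; of each list, up to 4 called genes with the largest change and those with no count; the 3 nearest profiles; neighbours that passed or overlap. Genes singled out beyond this, such as Otp, Csf1r and Draxin in the knockouts, were chosen after their values were seen. Of 15 sensory ganglion genes, Drgx was not found under that symbol. A few list genes are not reported here. Class 3 levels per kb use RefSeq spans.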

Additional observations from a re-analysis of the deposited data

How the results depend on the processing

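The tissue differences of Pou3f1, Pou3f2, Pou3f4, Pou4f1 and Pou2f2 kept direction and call in every alternative run, in wild type and in knockouts. Pou3f3 lost its call in 7 of 16 alternatives in wild type, and in the knockouts passed in 2 of 16, without a filter (adjusted p = 0.006551 by edgeR's quasi-likelihood test) and without forebrain knockout replicate 2. Genes called over all libraries left out in turn ranged from 2816 to 5285 for wild-type tissue, 2810 to 4356 for knockout tissue, 0 to 8 for the midbrain knockout, 1 to 209 for the forebrain knockout and 0 to 64 for the interaction. The 209 and 64 were without forebrain knockout replicate 2; without replicate 1 they were 9 and 3. The cause was not tested. Without a filter on low counts the 2 knockouts and the interaction gave 22, 161 and 111 calls. DESeq2 gave 13 for the forebrain knockout and 4 for the interaction, and limma-voom gave 1 for the forebrain knockout. With only the 4 libraries compared, each knockout gave 1 call, and the forebrain difference of Pou4f1 was -0.00070. No interaction was fitted there because it needs all groups.

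Leaving out 1 library turned the sign of small differences. Pou4f1 ranged from -0.14 to 0.019 in the midbrain knockout. In the forebrain knockout the ranges were -0.34 to 0.42 for Pou3f1, -0.21 to 0.17 for Pou3f3, -0.12 to 0.13 for Pou3f4 and -0.55 to 0.82 for Pou4f1. In the interaction they were -0.21 to 0.55, -0.12 to 0.26, -0.068 to 0.18 and -0.88 to 0.48 for the same genes. Where a group kept 1 library, that library is assumed to vary like the others.

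The replicate block, which treats equal replicate numbers as pairs, gave 4501, 4516, 0, 3 and 1 calls for wild-type tissue, knockout tissue, midbrain knockout, forebrain knockout and interaction, and changed no call of a member; Pou3f2 in the forebrain knockout had 0.50 with an adjusted p of 0.08415 by edgeR's quasi-likelihood test. Deviations of same-numbered libraries correlated at -0.019 to 0.085 over the 6 pairs of groups, so the numbers are not taken as pairing.

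Depth limits Pou4f2 and Pou4f3 most. Without the filter on low counts, Pou4f3 had an adjusted p of 0.5553 in wild-type and 0.0384 in knockout tissue by edgeR's quasi-likelihood test, where 8 of the 10 knockout midbrain counts lay in replicate 2 and the knockout forebrain had 0.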
